A study of Rattus norvegicus with 62 samples.

Results

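The genes described here are 7 genes that mark astrocytes or respond with them, chosen by Ensembl ID from the 32545 genes of the count table. They are Gfap (ENSRNOG00000002919), Vim (ENSRNOG00000018087), Aqp4 (ENSRNOG00000016043), S100b (ENSRNOG00000001295), Slc1a3 (ENSRNOG00000016163), Slc1a2 (ENSRNOG00000005479) and Apoe (ENSRNOG00000018454). Their symbols come with the list, because the table holds IDs alone. All 7 passed the filter on low counts, which left 16535 genes for testing. Total RNA was sequenced from the amygdala of 62 male Long Evans rats, taken as punches of the central and basolateral nuclei from both hemispheres. Blast and sham animals alike were aged 10 to 12 weeks when treated. Blast animals were put in a shock tube and given an overpressure event of 74.5 kPa every 24 h over 72 h. Sham animals went through the same handling without the pressure. The sub-acute groups had 17 sham and 17 blast animals, taken a month or more after exposure and called acute in the labels, and the chronic groups had 14 sham and 14 blast animals, taken about a year or more after exposure. An animal is named by its label, which begins with AS, AB, CS or CB for these groups in that order. By the study's account, animals of both treatments and both time-points went through behavioral tests before the tissue was taken. The treatments share that history at each time-point, but the tests differed between time-points, since the chronic animals were given fewer of them and were tested in a larger open field chamber. The chronic animals were also older, so time since exposure, age and test history cannot be told apart in the comparisons with time.

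Astrocytes are the glial cells that take up glutamate and potassium around synapses, cover blood vessels with their endfeet and supply lipids to neurons. After brain injury they can become reactive, a state known for higher levels of the intermediate filament proteins GFAP and vimentin, and Gfap RNA is also known to rise in the aging brain. The other genes of the list cover resting functions. Aqp4 encodes the water channel of the endfeet, S100b a calcium-binding protein that is also made by some oligodendrocytes, Slc1a3 and Slc1a2 the glial glutamate transporters GLAST and GLT-1, and Apoe a lipid carrier that is made by astrocytes and microglia. Vim is also expressed by endothelial and other vascular cells.

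Promoter windows are shown for 3 genes on which the results turn. Gfap and S100b were taken because they rose with time in sham animals. Aqp4 was taken because, among the 7 genes, it had the highest correlation with S100b over animals. The sequences are from RefSeq on the GRCr8 assembly, a different build from the one used for the counts, and all 7 genes had an entry. Each window runs 5′ to 3′ on the strand of the gene from 250 bases before to 50 bases after the most upstream annotated start, and capitals mark matches to the motifs searched. The windows lie at chr10:88361612-88361911 for Gfap, chr20:12381032-12381331 for S100b and chr18:6798793-6799092 for Aqp4, each on the minus strand.
Gfap: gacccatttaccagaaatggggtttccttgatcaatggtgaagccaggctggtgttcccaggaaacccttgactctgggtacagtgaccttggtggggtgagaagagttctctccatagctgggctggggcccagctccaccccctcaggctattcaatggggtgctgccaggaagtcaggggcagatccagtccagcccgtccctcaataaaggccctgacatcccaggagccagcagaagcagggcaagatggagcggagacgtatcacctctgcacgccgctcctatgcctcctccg
S100b: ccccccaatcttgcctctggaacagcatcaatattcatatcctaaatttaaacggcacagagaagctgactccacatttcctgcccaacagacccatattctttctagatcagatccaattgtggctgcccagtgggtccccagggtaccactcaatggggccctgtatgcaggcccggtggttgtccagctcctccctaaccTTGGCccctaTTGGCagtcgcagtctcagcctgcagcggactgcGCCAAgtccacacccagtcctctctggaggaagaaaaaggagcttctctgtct
Aqp4: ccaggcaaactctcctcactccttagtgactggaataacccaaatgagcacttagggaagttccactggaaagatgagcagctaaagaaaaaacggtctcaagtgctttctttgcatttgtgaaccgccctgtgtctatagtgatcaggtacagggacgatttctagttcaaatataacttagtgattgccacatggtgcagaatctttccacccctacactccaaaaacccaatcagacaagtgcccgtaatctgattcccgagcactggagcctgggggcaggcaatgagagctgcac
Motifs were searched on both strands as a STAT site TTCNNNGAA, an NFI half-site TTGGC, an AP-1 site TGANTCA and a TATA box TATAAA, and no match overlapped another. These are held by 8.87%, 45.8%, 7.33% and 14.2% of 33469 rat promoter windows of this length. The S100b window held 3 NFI half-sites, whose first bases lie 47, 37 and 3 bases before the start, the last one on the opposite strand. The Gfap and Aqp4 windows held none of these letters. Of the other windows, Vim had 2 NFI half-sites and a TATA box, Apoe had 2 NFI half-sites, Slc1a3 had 1 and Slc1a2 had none. A match is a description of letters and not of binding.

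Levels are given as CPM, the count of a gene per 1000000 counts of a library scaled by edgeR's TMM factor, and differences as log2 fold changes from limma. The library totals lay between 18220986 and 78585782 counts, with medians of 50123693 in sub-acute sham, 54959799 in sub-acute blast, 42328495 in chronic sham and 37460121 in chronic blast animals. There were 2 libraries under 25000000 counts, chronic blast animal CB149 and chronic sham animal CS115, which stand at the edge of their group for several genes. Animal numbers beginning with 1 were carried by all 14 animals of each chronic group, by 2 of 17 sub-acute sham animals and by 5 of 17 sub-acute blast animals. The labels do not explain these number series, and for most animals they cannot be told apart from the time-point. CPM levels of 1 gene are compared between animals and not with another gene, since gene lengths of the annotation were not used here. The count ratios of 2 genes given below are compared between groups, and their size within a group is not corrected for gene length. Every library held at least 571 counts of every one of the 7 genes.

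**Figure D1:**
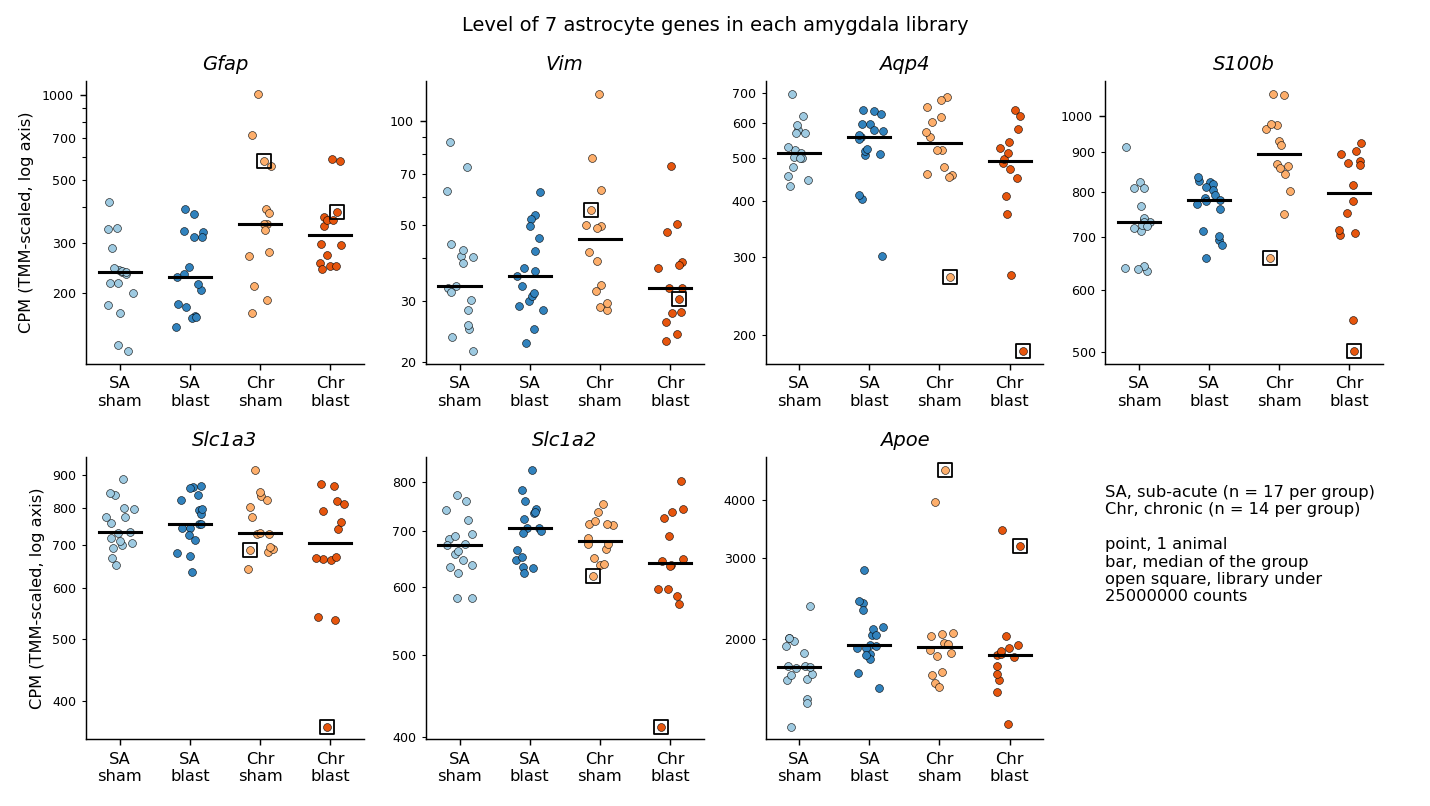
CPM (log axis) of each of the 7 genes, with 1 point per animal, a bar at the median of each group and a square around the 2 libraries under 25000000 counts. Gfap ran from 124.6 to 1006 CPM over all animals and S100b from 501 to 1067, the highest S100b values were in chronic sham animals, and chronic blast animal CB149 was the lowest of all for Aqp4, S100b, Slc1a3 and Slc1a2.

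In sham animals Gfap RNA was higher at the chronic than at the sub-acute time-point, and in blast animals the estimate went the same way but missed the threshold. In sub-acute sham animals Gfap ran from 124.6 CPM (animal AS204) over a median of 236.6 to 417 (animal AS221), and in chronic sham animals from 169 (animal CS112) over 349 to 1006 (animal CS144). The groups overlap, but 4 of 14 chronic sham animals lay above every sub-acute sham animal and 11 of 14 above the sub-acute median. On the log2 scale the mean rose from 7.83 ± 0.45 (SD, n = 17) to 8.51 ± 0.74 (n = 14), and the fitted difference was 0.68 (SE 0.18, 95% interval 0.31 to 1.05, limma adjusted p = 0.033), a fold of 1.602. Since bulk tissue was sequenced, more cells that express Gfap and more Gfap RNA per cell cannot be told apart, here and for the other genes.

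In blast animals Gfap went from 151 CPM (animal AB109) over a median of 226.2 to 395 (animal AB206) at the sub-acute time-point, and from 243 (animal CB143) over 320 to 592 (animal CB135) at the chronic time-point. All 14 chronic blast animals lay above the sub-acute blast median, though only 2 above its highest animal. The log2 difference was 0.50 (SE 0.18, 95% interval 0.13 to 0.87), with limma's raw p = 0.0084 and adjusted p = 0.054, so Gfap missed the threshold in blast. The change in blast less the change in sham was -0.18 (95% interval -0.70 to 0.35, limma adjusted p = 0.940), so no difference between the treatments in the change with time was detected.

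Gfap values of the chronic sham animals were the most spread of the 4 groups, and the call in sham depended on single animals. The highest chronic sham animal had 5.94 times the level of the lowest, against 3.35 times in sub-acute sham, 2.61 in sub-acute blast and 2.44 in chronic blast. A larger spread in chronic sham did not pass in permutation tests, against sub-acute sham (p = 0.109, adjusted p = 0.505) or chronic blast (p = 0.126, adjusted p = 0.505). When each of the 62 animals was left out in turn, Gfap kept an adjusted p under 0.05 in 55 fits and lost it in 7, without sub-acute sham animals AS204 or AS211 or without chronic sham animals CS115, CS125, CS127, CS144 or CS148. Across these fits the log2 difference stayed between 0.57 and 0.78 and the adjusted p between 0.010 and 0.086. In blast, 18 of 62 such fits brought Gfap under the threshold, with adjusted p values from 0.035 to 0.095.

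Median Gfap differed with the number series within the sub-acute groups, but few of these animals belong to the series that begins with 1. The 2 such sub-acute sham animals had a median of 312 CPM against 232.9 in the other 15. The 5 such sub-acute blast animals had a median of 314 against 220.7 in the other 12. Those 5 animals ran from 151.3 to 329.9 CPM, against 162.4 to 395.3 in the other 12. Animals AB109 and AB103 of that series, at 151.3 and 165.8, lay below the median of the others. The ranges overlap in both groups, and a difference between the series within these groups was not tested. With the series as a covariate the Gfap difference with time in sham was 0.49 with an adjusted p of 0.823, and within that series alone it was 0.22 with an adjusted p of 0.9998, over 2 sub-acute animals. The adjusted p over all alternative settings ran from 0.0027 to 0.9998. In blast the difference within the series was 0.45 (adjusted p = 0.473). The part of the series in the result was not tested further.

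Vim, the intermediate filament gene that accompanies Gfap in reactive astrocytes, passed the threshold in no comparison. The median was 33.3 CPM in sub-acute sham animals (21.6 to 86.7), 35.5 in sub-acute blast (22.8 to 62.3), 45.4 in chronic sham (28.3 to 120) and 32.7 in chronic blast (23.0 to 74.0). The groups overlap throughout, and chronic sham animal CS125 was the highest of all. The log2 difference with time was 0.30 (SE 0.18) in sham, with limma's adjusted p = 0.368, and -0.07 (SE 0.18) in blast (adjusted p = 0.825). Chronic blast differed from chronic sham by -0.39 (95% interval -0.77 to -0.01), with a raw p of 0.046 and limma's adjusted p of 0.901.

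S100b rose with time in sham animals, and in blast animals it did not pass the threshold. It ran from 635 CPM (animal AS204) over a median of 732 to 914 (animal AS601) in sub-acute sham animals, and from 659 (animal CS115) over 893 to 1067 (animal CS144) in chronic sham animals. There, 13 of 14 chronic animals lay above the sub-acute median and 7 above every sub-acute sham animal. The mean log2 CPM rose from 9.52 ± 0.14 (SD, n = 17) to 9.80 ± 0.19 (n = 14), and the fitted difference was 0.28 (SE 0.07, 95% interval 0.15 to 0.41, limma adjusted p = 0.013), a fold of 1.21. S100b kept an adjusted p under 0.05 in all 62 fits that left out an animal, with 0.031 as the highest. With the number series as a covariate the difference was 0.25 (adjusted p = 0.710), and within the series that begins with 1 it was 0.30 (adjusted p = 0.9998, 2 sub-acute animals), while the adjusted p over all alternative settings began at 4.4e-08.

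In blast animals S100b had a median of 782 CPM at the sub-acute time-point (659 to 835) and of 798 at the chronic time-point (501 to 923). The chronic animals lay on both sides, with 6 of 14 above and 2 of 14 below every sub-acute blast animal. The log2 difference was -0.00 (SE 0.07, 95% interval -0.14 to 0.13, limma adjusted p = 0.977). This value depended on the model, and was 0.19 with surrogate variables, a call in limma's test (adjusted p = 0.0094), and 0.15 with the library total as a covariate, which did not pass. At the chronic time-point itself, S100b was lower in blast than in sham by a log2 difference of -0.22 (SE 0.07, 95% interval -0.36 to -0.08), which had rank 30 by p among 16535 genes with a raw p of 0.0025 and limma's adjusted p of 0.901. Of the 14 chronic blast animals, 11 lay below the chronic sham median and 2 below its lowest animal. The lowest was the shallow library CB149 at 501 CPM. With each animal left out in turn, this difference stayed between -0.25 and -0.17 and passed in 0 of 62 fits. Over animals with group means removed, S100b had r = 0.48 with the log2 library total. The interaction of treatment and time was -0.28 (SE 0.09, 95% interval -0.47 to -0.09), rank 36 with a raw p of 0.0038 and limma's adjusted p of 0.838, so the contrast between the treatments did not pass the threshold.

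Aqp4 showed no difference between groups past the threshold. Its median was 513 CPM in sub-acute sham animals (432 to 697), 557 in sub-acute blast (302 to 642), 540 in chronic sham (271 to 685) and 492 in chronic blast (184 to 640). The lowest animals were AB222 in sub-acute blast and the shallow libraries CS115 and CB149 in the chronic groups. With time the log2 difference was -0.00 in sham (95% interval -0.24 to 0.23) and -0.23 in blast (95% interval -0.47 to 0.00, raw p = 0.052, limma adjusted p = 0.173).

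The glutamate transporter genes varied least of the 7 between sham animals, with SDs of log2 CPM from 0.08 to 0.15. Slc1a3 had a median of 735 CPM in sub-acute sham animals (653 to 888) and of 731 in chronic sham animals (643 to 919), and Slc1a2 had 673 (583 to 771) and 681 (619 to 752). Their log2 differences with time in sham were 0.01 (95% interval -0.14 to 0.15) and 0.03 (95% interval -0.08 to 0.14). In blast animals Slc1a3 had medians of 757 (637 to 865) and 707 (365 to 873) and Slc1a2 of 705 (624 to 827) and 640 (411 to 800), from the sub-acute to the chronic time-point. Animal CB149 gave the lowest value of both in chronic blast. The log2 differences in blast were -0.17 (SE 0.07, raw p = 0.024, limma adjusted p = 0.107) for Slc1a3 and -0.14 (SE 0.05, raw p = 0.012, limma adjusted p = 0.066) for Slc1a2. Without animal CB149 they were -0.10 and -0.09, and with the library total as a covariate both turned, to 0.00 and 0.01. Slc1a2 passed in 5 of the 62 fits that left out an animal, without sub-acute blast animal AB236 or chronic blast animals CB122, CB132, CB134 or CB139, with 0.025 as the lowest adjusted p.

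Apoe, the lipid carrier, was spread by a few high animals at the chronic time-point. Its median was 1740 CPM in sub-acute sham animals (1290 to 2363), 1939 in sub-acute blast (1564 to 2825), 1922 in chronic sham (1572 to 4666) and 1849 in chronic blast (1305 to 3447). The highest chronic sham animals were CS115 at 4666 and CS144 at 3967, and the highest chronic blast animals were CB111 at 3447 and CB149 at 3180. Of the 7 genes, Apoe had the largest difference of treatment among sub-acute animals, where 15 of 17 blast animals lay above the sham median, with a log2 difference of 0.21 (SE 0.11, 95% interval -0.01 to 0.43, raw p = 0.056, limma adjusted p = 0.770). With time in sham it was 0.25 (SE 0.11, raw p = 0.029, limma adjusted p = 0.226), and with surrogate variables in the model that difference was 0.23 with an adjusted p of 7.2e-06. Within the number series that begins with 1 it turned in sign. The 2 sub-acute sham animals of that series had a median of 2187 CPM against 1731 in the other 15. In sub-acute blast the medians were 1858 in that series and 2039 in the others. The Apoe difference with time in blast was -0.07 (limma adjusted p = 0.714).

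**Figure D2:**
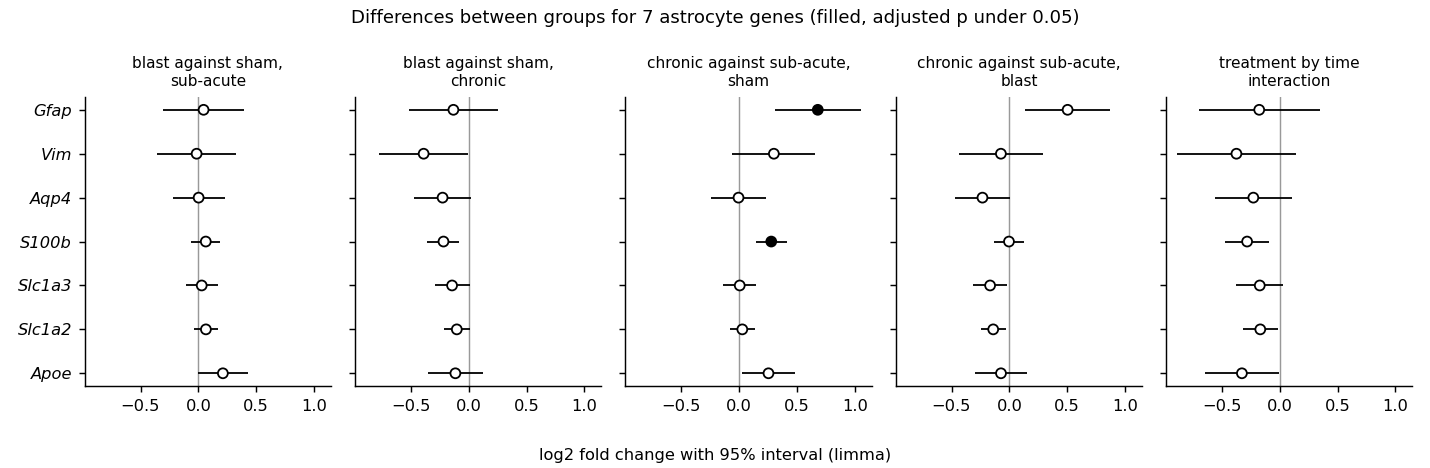
Log2 fold changes from limma (horizontal axis) with 95% intervals for the 7 genes in each of 4 comparisons and for the interaction of treatment and time, with filled points where the adjusted p was under 0.05. The filled points are Gfap (0.68) and S100b (0.28) with time in sham animals.

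The comparison of blast with sham asks what the exposure left in the tissue at each time-point, and none of the 7 genes passed adjustment in it. At the sub-acute time-point 0 of 7 had an adjusted p under 0.05 and 0 had a raw p under 0.05 in limma's test, against 0% and 5.18% of all genes tested. edgeR's quasi-likelihood test and DESeq2 called 0 of the 7 as well. The 7 log2 differences lay between -0.02 (Vim) and 0.21 (Apoe), with a median of 0.04 against -0.00 over all genes. The 95% interval for Gfap reached from -0.31 to 0.40, and that of its difference with time in sham from 0.31 to 1.05. These 2 differences share the sub-acute sham animals and were not tested against each other.

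At the chronic time-point 0 of 7 passed adjustment, against 0% of all genes, and Vim and S100b, 2 of 7, had a raw p under 0.05 against 5.04% of all genes. edgeR's test and DESeq2 called 0 of the 7. All 7 estimates were lower in blast, from -0.10 (Slc1a2) to -0.39 (Vim), with a median of -0.14 against 0.00 over all genes, of which 50.5% were higher in blast. The 7 genes are not independent of each other, as the correlations below show. For Gfap the difference was -0.13 (95% interval -0.52 to 0.25, limma adjusted p = 0.939), with 8 of 14 blast animals below the sham median. It was -0.02 without chronic sham animal CS144 and -0.22 without CS112, and passed in 0 of the 62 fits that left out an animal.

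The comparison of time-points asks what changed with age and time since exposure. In sham animals 2 of 7 were called at an adjusted p under 0.05 against 2.19% of all genes, and 3 of 7 had a raw p under 0.05 against 18.0%. The median log2 difference of the 7 was 0.25 against -0.00 over all genes. In blast animals 0 of 7 were called in limma's test against 14.9% of all genes, although more genes overall were called than in sham, and 3 of 7 (Gfap, Slc1a3, Slc1a2) had a raw p under 0.05 against 29.8%. DESeq2 called 1 of the 7 in blast, Gfap with an adjusted p of 0.038, and edgeR's test called 0. The median of the 7 in blast was -0.07 against -0.02 over all genes, and Gfap alone was higher.

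For the interaction of treatment and time 0 of 7 passed adjustment against 0% of all genes, and S100b, Slc1a2 and Apoe, 3 of 7, had a raw p under 0.05 against 5.56%. edgeR's test and DESeq2 called 0 of the 7. All 7 estimates were below 0, with a median of -0.23 against -0.00 over all genes. The estimates for Slc1a2 and Apoe were -0.17 (SE 0.08) and -0.33 (SE 0.16), both with limma's adjusted p = 0.838. These estimates share their animals with the comparisons above and add no separate evidence.

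The ratio of 2 genes within a library does not depend on how libraries are scaled, and 3 such ratios were compared in 12 permutation tests (two-sided, 100000 resamples). The log2 ratio of Gfap to Aqp4 counts went from -1.21 ± 0.47 (SD, n = 17) to -0.53 ± 0.81 (n = 14) with time in sham, a difference of 0.68 (permutation test, p = 0.0050, adjusted p = 0.020). In blast it went from -1.17 ± 0.47 to -0.43 ± 0.73, a difference of 0.73 (permutation test, p = 0.0013, adjusted p = 0.016). The ratio moves with Aqp4 as well as Gfap. By limma, the log2 differences with time were 0.50 for Gfap, which missed the threshold, and -0.23 for Aqp4 in blast. In sham they were 0.68 and -0.00. The ratio therefore adds no separate evidence of a rise in Gfap. The ratio of Gfap to Vim rose in blast from 2.68 ± 0.41 to 3.26 ± 0.67 (permutation test, adjusted p = 0.020) and by 0.38 in sham (permutation test, adjusted p = 0.408). Both differences of Gfap to Aqp4 with time were of about the size of the SD among chronic animals, and the groups overlap. Without both libraries under 25000000 counts, the differences of Gfap to Aqp4 were 0.56 in sham and 0.62 in blast (permutation tests, adjusted p = 0.045 and 0.041). The ratio of Slc1a2 to Slc1a3 differed by 0.02 to 0.04 in the 4 comparisons (permutation test, adjusted p of at least 0.671). Within the number series that begins with 1, where only the 6 tests with time were run, 0 passed, with 2 sub-acute sham and 5 sub-acute blast animals. There the difference of Gfap to Aqp4 was 0.83 in blast (permutation test, p = 0.033, adjusted p = 0.177). In sham it was 0.31 (permutation test, p = 0.599, adjusted p = 0.719). The difference of Gfap to Aqp4 between blast and sham was 0.04 at the sub-acute and 0.09 at the chronic time-point, with an adjusted p of 0.797 for each in the permutation test.

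The spread between animals was compared for each gene and pair of groups as the mean absolute deviation from the group median in log2 CPM, in 28 permutation tests. None passed adjustment, and 4 had an unadjusted p under 0.05. The smallest p values were for S100b and Slc1a3 in blast animals, whose mean deviation went from 0.082 to 0.201 and from 0.106 to 0.244 from sub-acute to chronic animals (permutation tests, p = 0.0077 and 0.0097, adjusted p = 0.136 for both). In Slc1a2 the deviation at the chronic time-point was 0.156 in blast against 0.070 in sham (permutation test, p = 0.047, adjusted p = 0.348). Without both libraries under 25000000 counts 1 of the 28 tests had an unadjusted p under 0.05, that of S100b in blast (permutation test, p = 0.033, adjusted p = 0.570), and the chronic deviation of Slc1a3 in blast was 0.184 (permutation test, p = 0.054).

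Whether the other genes move with Gfap from animal to animal was tested in each group alone, over 24 relations. By Pearson's r none passed adjustment and 4 had an unadjusted p under 0.05. The closest relation was that of Gfap and Vim in chronic sham animals, with r = 0.71 (permutation p = 0.0038, adjusted p = 0.090) and Spearman's rho = 0.82 (permutation p = 0.00065, adjusted p = 0.016), which made it the only relation past the threshold by rank. Without the 2 animals farthest from the Gfap median r was 0.63. In sub-acute blast animals r was 0.57 (permutation p = 0.018, adjusted p = 0.199), rho was 0.53 (p = 0.031, adjusted p = 0.260) and r without the 2 farthest animals was 0.62, while in sub-acute sham and chronic blast r was -0.17 and -0.13 (permutation p = 0.505 and 0.655). An unadjusted p under 0.05 was also held by Gfap with Slc1a2 in sub-acute sham animals, with r = 0.52 (permutation p = 0.033, adjusted p = 0.199). In the other groups r of this pair lay between -0.16 and 0.12. Gfap with Apoe in chronic sham had r = 0.60 (permutation p = 0.025, adjusted p = 0.199), and elsewhere from -0.20 to 0.52. Gfap and Slc1a3 had negative values in the chronic groups, r = -0.52 in sham and -0.46 in blast (permutation test, adjusted p = 0.225 and 0.337).

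Among the genes for the water channel, the calcium-binding protein and the glutamate transporters, r was positive in 23 of 24 relations within groups. The exception was Aqp4 with Slc1a2 in sub-acute sham animals, with r = -0.05, and in sub-acute blast this pair had r = 0.20. The 15 pairs without Gfap were examined in the 4 groups after the values had been seen, which gave 60 relations, and 13 passed adjustment by r. Of these 12 were positive and all lay within Aqp4, S100b, Slc1a3 and Slc1a2, which have 24 relations among them. By group, 0 of 6 passed in sub-acute sham animals, 4 of 6 in sub-acute blast, 2 of 6 in chronic sham and 6 of 6 in chronic blast. In chronic blast r lay between 0.86 and 0.94. By Spearman's rho, 8 of the 60 passed adjustment, all of them among these genes and 6 of them in chronic blast. Whether the groups differ in these correlations was not tested. The share of all other gene pairs that passes was not computed, so these counts do not set the 4 genes apart from other genes. Ranks among all genes are given below.

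The closest pair was Aqp4 and Slc1a3 in chronic blast animals, with r = 0.94 (permutation test, adjusted p = 0.00030), rho = 0.89 (adjusted p = 0.0027) and r = 0.84 without the 2 animals farthest from the Aqp4 median. Animal CB149, the shallowest library, lay at the low end of both genes, and without it r was 0.87 (adjusted p = 0.0040). Without both libraries under 25000000 counts, 10 of the 24 relations passed, of which 5 were in chronic blast and 1 in chronic sham, and Aqp4 with S100b in chronic sham went from r = 0.74 (permutation test, adjusted p = 0.017) to 0.48 (adjusted p = 0.285). The single negative relation that passed was Aqp4 with Apoe in sub-acute blast, with r = -0.72 (permutation test, adjusted p = 0.0098), rho = -0.51 (adjusted p = 0.152) and r = -0.55 without the 2 farthest animals.

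**Figure D3:**
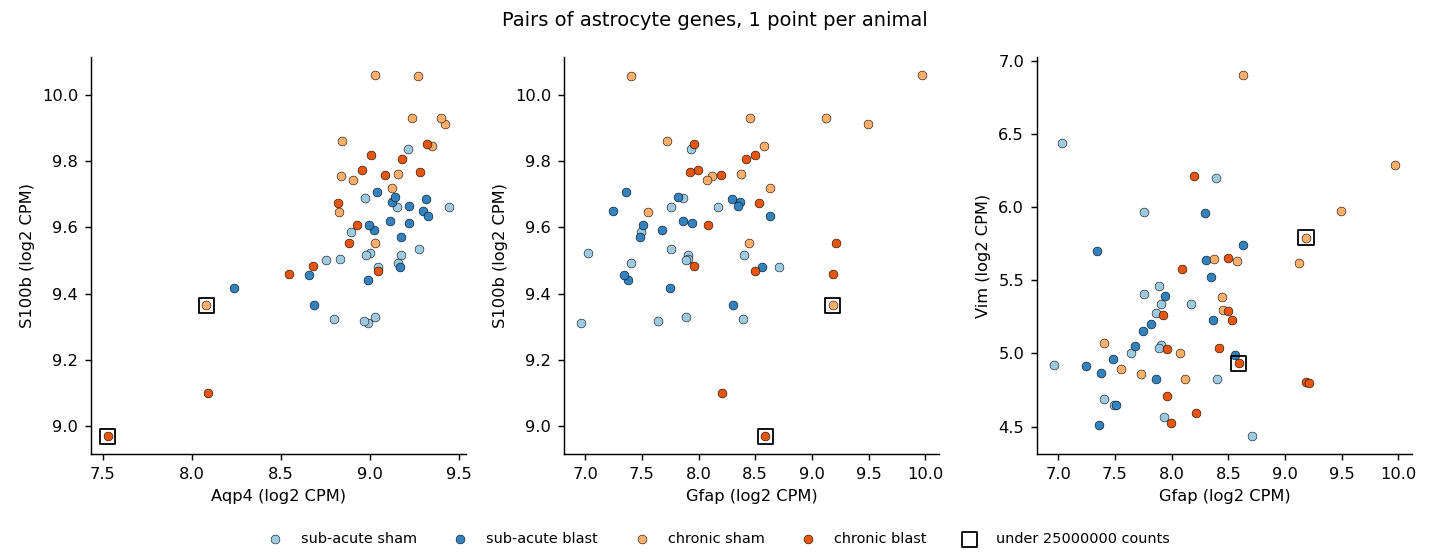
Log2 CPM of S100b against Aqp4 (left), S100b against Gfap (middle) and Vim against Gfap (right), with 1 point per animal, colored by group, and squares around the 2 libraries under 25000000 counts. S100b rises with Aqp4 in all 4 groups (r from 0.46 to 0.93), and shows no such slope against Gfap (r from -0.27 to 0.11).

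Over all 62 animals with the group means removed, Aqp4, S100b, Slc1a3 and Slc1a2 had higher r with each other than with Gfap. These values are a description, since the points share library, scaling and depth. Pearson's r was 0.78 for Aqp4 with S100b, 0.76 for Aqp4 with Slc1a3, 0.74 for S100b with Slc1a3 and for Slc1a3 with Slc1a2, 0.72 for S100b with Slc1a2 and 0.56 for Aqp4 with Slc1a2. Without both shallow libraries these were 0.67, 0.69, 0.66, 0.59, 0.61 and 0.33. Gfap had r = -0.02 with S100b, -0.00 with Aqp4, 0.05 with Slc1a2, -0.28 with Slc1a3, 0.31 with Vim and 0.40 with Apoe. Among the 16534 other genes tested, the ranks of these 4 genes depended on the gene they were set against. In likeness to Slc1a2, Slc1a3 ranked 3, S100b 9 and Aqp4 529, and in likeness to S100b, Aqp4 ranked 13, Slc1a3 45 and Slc1a2 67. In likeness to Slc1a3, Slc1a2 ranked 280 and S100b 292, both behind Aqp4, and in likeness to Aqp4, S100b ranked 394, Slc1a3 537 and Slc1a2 2535. In likeness to Gfap, Apoe ranked 1263 and Vim 2702, and the transporter Slc1a3 ranked 13061.

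**Figure D4:**
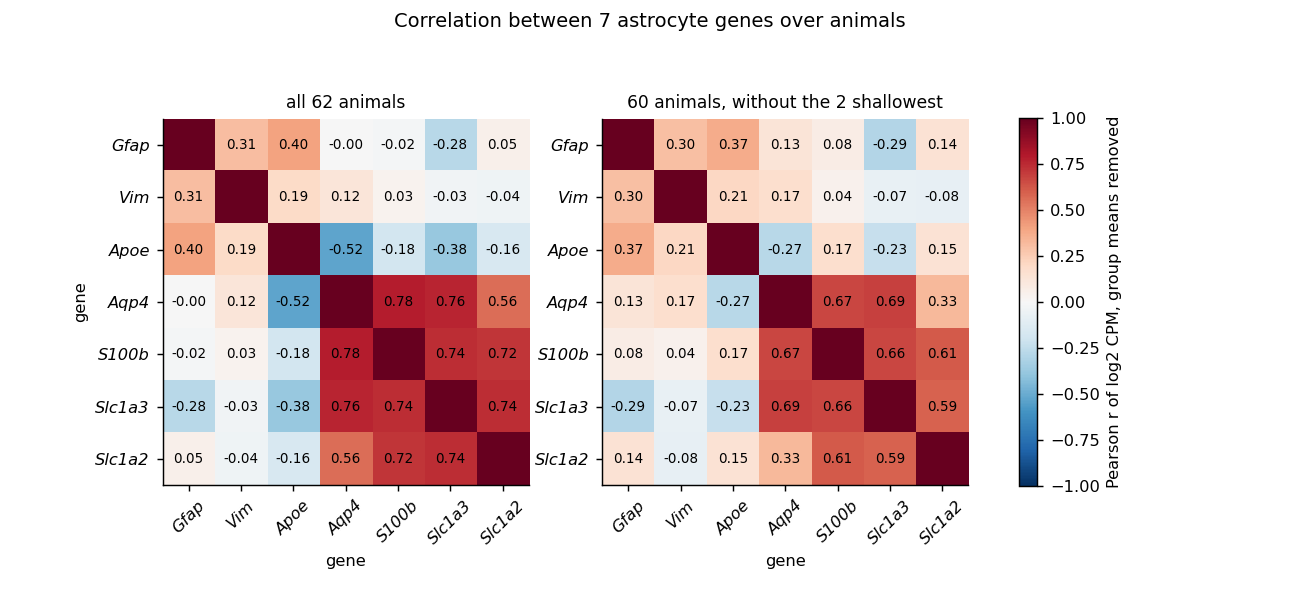
Pearson r of log2 CPM between each pair of the 7 genes with group means removed, over all 62 animals (left) and over 60 animals without the libraries under 25000000 counts (right), with genes on both axes and color from -1 to 1. The block of Aqp4, S100b, Slc1a3 and Slc1a2 holds values from 0.56 to 0.78 on the left and from 0.33 to 0.69 on the right, and Gfap lies outside of it.

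Depth moved with the same genes. Over 62 animals with group means removed, the log2 library total had r = 0.51 with Aqp4, 0.48 with S100b, 0.48 with Slc1a3 and 0.58 with Slc1a2, against 0.06 with Gfap, -0.12 with Vim and -0.41 with Apoe. The log2 TMM factor had r = -0.41, -0.42, -0.35 and -0.56 with the first set of genes, and with the library size alone in place of TMM 11 of their 24 relations passed. The part of depth in these correlations was not tested. Markers of neurons, oligodendrocytes, microglia and vessels were not analysed here.

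The genes most like Gfap over 62 animals, by Pearson's r of log2 CPM with group means removed, were ENSRNOG00000009910 with r = 0.66, ENSRNOG00000018325 with 0.63 and ENSRNOG00000049768 with 0.62, given by ID alone. Over all 16534 other genes the median r with Gfap was -0.01, and 5% of genes lay above 0.43, a level that none of the other 6 astrocyte genes reached.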

How the data were processed

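The authors prepared rRNA-depleted stranded libraries, aligned paired reads with STAR 2.4.2a to Ensembl Rnor_6.0 and counted them with featureCounts 1.4.3-p1, and deposited raw counts per gene, 1 column per animal. The strand setting and the treatment of reads with several matches are not given in the sources used here, so overlapping or antisense genes cannot be separated from the 7 genes. In the table, 2 columns match no sample and were not used.

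From the counts, TMM factors and an expression filter were computed with edgeR 4.0.16, and voom with limma 3.58.1 in R 4.3.3 was fitted to 4 group means over 62 animals. A gene was called at a Benjamini-Hochberg adjusted p under 0.05 over 16535 genes, without a fold threshold. Log2 CPM used a prior count of 2. Permutation tests drew 100000 resamples. The model was tested on simulated data. Libraries of a group were all distinct, as the smallest mean chi-square between the counts of a pair was 16.4 per gene, where sampling noise gives about 1. Labels do not say more of the replicates than that each is an animal.

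As alternatives, DESeq2 1.42.0, the quasi-likelihood test of edgeR, other scaling and filters, 9 surrogate variables (sva 3.50.0), quality weights, the number series or library total as covariate, subsets of animals, a fold of at least 1.2 and leaving out each animal were tried. Correlations between genes other than Gfap, with their alternatives, were added after the values were seen. The 7 genes and the gene lists were chosen with earlier results of these data known. Named genes were all 7, and the 3 genes most like Gfap. Markers of other cell types and 8 further gene lists were not analysed here, because the gene table at hand paired 0 of 32545 IDs with a symbol.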

Additional observations from a re-analysis of the deposited data

How the results depend on the processing

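The direction and the side of the threshold were the same as reported for 378 of 434 values of single genes under settings other than leaving out an animal, and for 2044 of 2170 with each animal left out. All values are log2 differences or numbers of the 7 genes called. The causes were not tested.

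With time in sham animals, 2 genes were called, and 0 with the number series as a covariate or in the series beginning with 1 alone. With the library total as a covariate, with only the 2 groups in the fit, and without the libraries under 25000000 counts, 1 was called, which was S100b. With surrogate variables in the model Apoe was called in sham as well. With time in blast animals, 0 were called, but 1 with DESeq2, library size only, a minimum of 10 counts per animal, surrogate variables, quality weights or only the 2 groups in the fit, and 2 without a filter (Gfap and Slc1a2). With surrogate variables that gene was S100b, and otherwise Gfap. Leaving out each animal gave 1 to 2 genes in sham and 0 to 2 in blast. Of the 12 tests of ratios 3 passed, and 0 of the 6 run in the series beginning with 1.

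Signs turned for values near 0, and in some settings for larger values, which are given after them. For Aqp4 with time in sham (-0.0047) the difference was 0.0200 with edgeR's test, 0.0251 with DESeq2, 0.0011 with DESeq2 size factors, 0.0201 with library size only, 0.0055 with a minimum of 10 counts per animal, 0.0019 unfiltered, 0.0952 with surrogate variables, 0.1743 with the library total, 0.0881 with quality weights, 0.0050 with only the 2 groups and 0.0697 without the shallow libraries. For S100b with time in blast (-0.0037) it was 0.0156, 0.0248, 0.0061 and 0.0380 under the first 4 of these, and 0.0082 with a minimum of 10 counts per animal, 0.1879 with surrogate variables (adjusted p = 0.0094, the lowest over these settings, where the highest was 0.962), 0.1511 with the library total, 0.0820 with quality weights, 0.0068 with only the 2 groups and 0.0439 without the shallow libraries. For Aqp4 between sub-acute blast and sham (0.0022) it was -0.0006 with DESeq2 size factors, -0.0139 with library size only, -0.0275 with the number series, -0.0708 with the library total and -0.0027 with only the 2 groups.

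The library total as a covariate also turned Vim (from -0.0153 to 0.0120) and Slc1a3 (from 0.0287 to -0.0125) between sub-acute blast and sham. With time in blast it turned Aqp4 (from -0.2327 to 0.0680), Slc1a3 (from -0.1668 to 0.0038) and Slc1a2 (from -0.1398 to 0.0099). Surrogate variables turned Gfap between sub-acute blast and sham (from 0.0449 to -0.0503) and Apoe with time in blast (from -0.0727 to 0.0753). They also turned Vim with time in sham (from 0.3008 to -0.0149) and blast (from -0.0734 to 0.0063) and in the interaction (from -0.3741 to 0.0212). Quality weights turned Gfap between sub-acute blast and sham (-0.0184) and Vim with time in blast (0.0429). In the series beginning with 1, Vim (from 0.3008 to -0.2599) and Apoe (from 0.2542 to -0.0716) turned with time in sham. There Apoe also turned with time in blast (from -0.0727 to 0.0295). Leaving out animals moved the sub-acute differences of blast and sham from -0.0119 to 0.0994 for Gfap, -0.0662 to 0.0594 for Vim and -0.0168 to 0.0495 for Aqp4, and those with time from -0.0237 to 0.0780 for Aqp4 and -0.0055 to 0.0298 for Slc1a3 in sham, and from -0.0247 to 0.0439 for S100b in blast.

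No paired analysis was possible because an animal belongs to 1 group and no number is shared between the groups compared.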
